A study of Danio rerio with 31 samples.

Results

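The neuropeptide Y family was represented by 3 of the 15648 zebrafish genes on the arrays. These were npy (ENSDARG00000036222), pyya (ENSDARG00000053449) and a peptide YY gene, ENSDARG00000035832. They were taken by gene ID or by the symbols npy and pyya. The gene table gives ENSDARG00000035832 the symbol PYY and does not say which zebrafish paralog it is, so it is called PYY-like here. The other family entries looked for, pyyb and ppy, matched no row by symbol.

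Neuropeptide Y and peptide YY are short amidated peptides that are cut from larger precursors, stored in dense core vesicles and released to act on a family of G protein-coupled Y receptors. In the mammalian brain, NPY is made by inhibitory interneurons of the forebrain, by hypothalamic neurons that promote feeding and by noradrenergic neurons. PYY is best known in mammals as a gut hormone that reduces food intake. In fishes, genes of both kinds are also active in brain tissue.

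The study asked how gene expression differs between brain regions and between wild and domesticated zebrafish. Total RNA from individual brain samples was hybridized to 31 single-colour arrays, 15 of telencephalon and 16 of midbrain. Nadia and Pargana North (Pargana in the protocol text) are the wild populations, and Scientific Hatchery and Transgenic Mosaic 1 the domesticated ones. Each group had 4 arrays, except 3 for Scientific Hatchery telencephalon, and every sample carries the treatment label control. The fish were 1-year-old adults, 7 males and 8 females for telencephalon and 7 males and 9 females for midbrain. The labels give each sample a number, and the sources used here do not say whether one number in both regions marks one fish, nor how the regions were cut or which samples were hybridized together.

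The dissections carried the markers of their labels. Of 14 marker genes of telencephalon, 11 were higher in telencephalon (78.6%, against 21.6% of all genes). Lower were 2 (14.3%, against 22.1% of all genes), foxg1b by a difference of -1.76 and EMX2 of -1.33. All 14 marker genes of midbrain were lower in telencephalon (100%, against 22.1% of all genes). Marker genes of hypothalamus and diencephalon varied within both regions. Their mean log2 value over 17 genes ran from 6.64 to 8.96 in telencephalon and from 7.58 to 10.05 in midbrain. The mean over 9 pituitary markers ran from 5.39 to 6.30 in telencephalon and from 5.45 to 8.54 in midbrain. The 14 telencephalon markers had a mean of 7.996 to 9.061 on the midbrain arrays and of 10.75 to 11.35 on the telencephalon arrays. Arrays of one region correlated at 0.945 to 0.988 over all genes, and array medians lay between 9.57 and 9.74.

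All 3 family genes were higher in telencephalon than in midbrain, and for none of them did an array of one region reach the values of the other. Of all genes, 2.28% had every telencephalon array above every midbrain array. PYY-like had by far the widest separation of the 3. Values are deposited log2 signals, and a difference of 1 is 2-fold. In bulk tissue, fewer cells of a type and less RNA per cell cannot be told apart, and this holds for every difference below.

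PYY-like had a mean of 14.81 ± 0.22 (SD, n = 15) in telencephalon, with a lowest value of 14.39, a median of 14.85 and a highest value of 15.14. In midbrain the mean was 9.06 ± 0.83 (SD, n = 16), the lowest value 7.35, the median 9.18 and the highest 11.00. The lowest telencephalon array thus stood 3.39 above the highest midbrain array. The difference between regions, averaged over the 4 populations, was 5.77 (SE 0.19, 95% interval 5.37 to 6.17), a 54.5-fold difference with an interval of 41.4-fold to 71.8-fold. Its adjusted p in limma was 8.77e-18, and by the size of the difference it ranked 3 among the 15648 genes.

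pyya had a mean of 13.55 ± 0.29 (SD, n = 15) in telencephalon, between 12.89 and 13.94 with a median of 13.57. In midbrain the mean was 11.71 ± 0.40 (SD, n = 16), between 11.16 and 12.59 with a median of 11.65. The regions were separated by 0.30. The difference was 1.86 (SE 0.12, 95% interval 1.62 to 2.11), or 3.63-fold, with an adjusted p in limma of 1.81e-12.

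npy, which encodes neuropeptide Y, showed the smallest difference of the 3. Its telencephalon mean was 14.40 ± 0.19 (SD, n = 15), between 13.97 and 14.69 with a median of 14.45. In midbrain the mean was 13.45 ± 0.14 (SD, n = 16), between 13.23 and 13.70 with a median of 13.45, and the regions were separated by 0.26. The difference was 0.94 (SE 0.068, 95% interval 0.80 to 1.08), or 1.92-fold, with an adjusted p in limma of 2.11e-11. Of all genes tested, 43.6% differed between the regions and 21.6% were higher in telencephalon, and all 3 family genes fell in the second class.

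**Figure D1:**
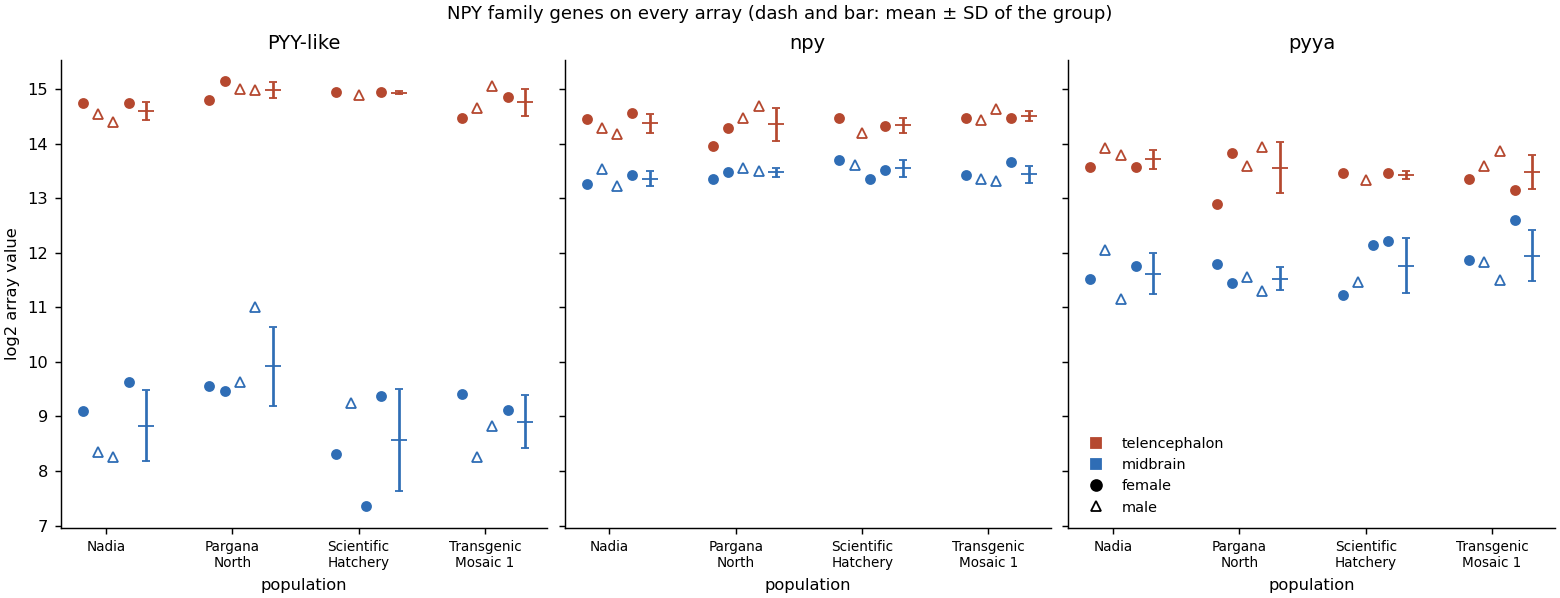
Log2 array values (y axis) of PYY-like, npy and pyya by population (x axis). Each point is an array, red for telencephalon and blue for midbrain, filled circles for females and open triangles for males; the dash and bar beside them are the group mean ± SD. In each panel the red points lie above all blue points, and the midbrain points of PYY-like are spread from 7.35 to 11.00.

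The separation held in every population. The region difference of PYY-like was 5.77 in Nadia, 5.07 in Pargana North, 6.38 in Scientific Hatchery and 5.86 in Transgenic Mosaic 1, with SE of 0.37, 0.37, 0.41 and 0.37. For pyya it was 2.09, 2.04, 1.78 and 1.54 in the same order, with SE of 0.23, 0.23, 0.25 and 0.23. For npy it was 1.01, 0.88, 0.79 and 1.07, with SE of 0.13, 0.13, 0.15 and 0.13. All of these 12 differences passed the threshold of an adjusted p of 0.05 in limma, where the highest was 3.03e-04, for npy in Scientific Hatchery. The share of all genes that passed was 19.1% in Nadia, 21.3% in Pargana North, 15.5% in Scientific Hatchery and 20.2% in Transgenic Mosaic 1.

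No difference in this region effect among the populations passed the test. The moderated F (3 degrees of freedom in the numerator) was 1.90 for PYY-like, 0.84 for npy and 1.22 for pyya, each with an adjusted p of 0.9999 in limma. This test called 0.0256% of all genes. Differences between samples of the same number exist for 15 numbers. All 15 were positive for each gene, which the lack of overlap between the regions already requires, so only their size is informative. They ran from 3.97 to 6.64 for PYY-like (median 5.65), from 0.55 to 2.64 for pyya (median 1.88) and from 0.59 to 1.32 for npy (median 0.90).

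The spread among arrays of one region differed between the 3 genes. With the group means and sex taken out, the SD of PYY-like was 0.18 in telencephalon and 0.75 in midbrain, a ratio of 4.12, and 0.128% of all genes had a ratio as high. For pyya the SDs were 0.27 and 0.39 (ratio 1.44), and for npy 0.21 and 0.14 (ratio 0.68), against a median ratio of 0.83 over all genes. PYY-like lay near the top of the scale in telencephalon, 0.21 to 1.00 below the highest gene of the same array. Whether the arrays compress differences there was not tested, and the table holds no detection calls.

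Among populations, PYY-like in midbrain had the largest F of the 3 genes, and it did not pass the threshold. The 4 Pargana North arrays gave 9.47, 9.56, 9.63 and 11.00. The Nadia arrays gave 8.26, 8.35, 9.09 and 9.63. The Scientific Hatchery arrays gave 7.35, 8.30, 9.25 and 9.38, and the Transgenic Mosaic 1 arrays 8.26, 8.83, 9.11 and 9.41. All Pargana North values thus lay above all values of both domesticated populations, whereas Nadia overlapped each of the others. Of all genes, 2.76% had no overlap, in either direction, between Pargana North and the domesticated arrays of midbrain. The group means were 9.92 ± 0.73 for Pargana North, 8.90 ± 0.49 for Transgenic Mosaic 1, 8.83 ± 0.65 for Nadia and 8.57 ± 0.94 for Scientific Hatchery (SD, n = 4 each). Pituitary markers also differed among these arrays. Relative to the midbrain mean, their mean was 0.53, 1.53, 2.33 and -0.003 on the Pargana North arrays, in the order above. It ran from -0.77 to 0.62 on the domesticated arrays and from -0.60 to -0.03 on the Nadia arrays. Its part in the PYY-like values was not tested.

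The moderated F for PYY-like among midbrain populations was 4.998 (unadjusted p = 0.0078, adjusted p = 0.118 in limma), in a test that called 3.29% of all genes. Without the Pargana North array of number 140, at 11.00, it was 2.78 (adjusted p = 0.359), and with the midbrain arrays fitted alone it was 3.03 (adjusted p = 0.283). Pargana North exceeded Scientific Hatchery by 1.37 (SE 0.38, limma adjusted p = 0.0943) and Transgenic Mosaic 1 by 1.02 (SE 0.37, limma adjusted p = 0.197). Nadia minus Pargana North was -1.08 (SE 0.37, limma adjusted p = 0.168). These 3 comparisons of populations called 0.818%, 1.69% and 1.41% of all genes.

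Wild minus domesticated in midbrain was 0.65 for PYY-like (SE 0.27, 95% interval 0.098 to 1.201, unadjusted p = 0.0229, adjusted p = 0.325 in limma). It was 0.15 without Pargana North and 1.15 without Nadia. With the midbrain arrays fitted alone the estimate was the same, with a larger SE of 0.34 (limma adjusted p = 0.427). For pyya the difference was -0.25 (interval -0.59 to 0.09) and for npy -0.07 (interval -0.27 to 0.12). None of the 3 passed, in a comparison that called 0.786% of all genes. The moderated F among midbrain populations was 1.24 for pyya and 0.68 for npy, with adjusted p of 0.680 and 0.844 in limma.

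In telencephalon, the population means of PYY-like lay between 14.60 in Nadia and 14.98 in Pargana North. Its 4 Nadia arrays gave 14.39, 14.54, 14.74 and 14.74, and its 4 Pargana North arrays 14.81, 14.98, 15.01 and 15.14. The 3 Scientific Hatchery arrays gave 14.90, 14.94 and 14.96, and the 4 Transgenic Mosaic 1 arrays 14.47, 14.65, 14.85 and 15.06. All Nadia values lay below all Pargana North and all Scientific Hatchery values, and 6.46% and 10.4% of all genes had no overlap, in either direction, in these pairs. The moderated F was 0.41 with the spread estimated from both regions, and 2.67 (limma adjusted p = 0.392) with telencephalon fitted alone, where the gene's spread is smaller.

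For npy and pyya in telencephalon the F was 0.64 and 0.43. This test called 6.44% of all genes and none of the 3, with adjusted p of 0.765 to 0.856 in limma. Wild minus domesticated in telencephalon was -0.05 for PYY-like (95% interval -0.62 to 0.52), -0.06 for npy (-0.26 to 0.14) and 0.16 for pyya (-0.19 to 0.51). None passed, where 1.91% of all genes did. With the spread estimated from both regions, the intervals leave room for a difference of 0.62 for PYY-like, but for npy they stop at 0.26. The SE was 0.28 for PYY-like and 0.098 for npy in this fit. With telencephalon fitted alone it was 0.11 for PYY-like and 0.12 for npy, so the wider interval of PYY-like does not describe its telencephalon spread.

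The difference between regions of wild minus domesticated was -0.70 for PYY-like (95% interval -1.49 to 0.10), 0.01 for npy (-0.27 to 0.29) and 0.40 for pyya (-0.08 to 0.89). Its adjusted p was 0.9992 for each gene in limma, and 0.0192% of all genes passed.

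Males and females did not differ in any family gene at the threshold. pyya had the largest estimates, of opposite sign in the 2 regions. In telencephalon its 8 females lay between 12.89 and 13.82 with a median of 13.46, and its 7 males between 13.34 and 13.94 with a median of 13.78. In midbrain the 9 females lay between 11.22 and 12.59 with a median of 11.80, and the 7 males between 11.16 and 12.06 with a median of 11.50. The sexes overlapped in both regions.

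Male minus female for pyya was 0.30 in telencephalon (SE 0.17, limma adjusted p = 0.536) and -0.29 in midbrain (SE 0.17, limma adjusted p = 0.9993). The difference between the regions was 0.59 (95% interval 0.09 to 1.08, unadjusted p = 0.0219, adjusted p = 0.9998 in limma). Of all genes, 0.0320% passed for sex in telencephalon, 0.00639% in midbrain and 0.00% for the difference between regions, where limma called none and 515 genes had an unadjusted p under 0.05. In telencephalon the mean value of the hypothalamus and diencephalon markers had a median of 8.80 in males (7.62 to 8.96) and 7.31 in females (6.64 to 8.93). The sexes thus overlapped, and none of the 17 markers passed for sex there. The marker mean itself was not tested against sex. With that marker mean, taken relative to the mean of each region, as a covariate, male minus female for pyya in telencephalon was 0.12 (SE 0.21, limma adjusted p = 0.923), in midbrain -0.18 (SE 0.18, limma adjusted p = 0.9996) and the difference between regions 0.30 (SE 0.28, limma adjusted p = 0.9998).

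For PYY-like, male minus female was -0.03 in telencephalon (95% interval -0.60 to 0.55) and -0.08 in midbrain (-0.64 to 0.49). With the spread estimated from both regions, the SEs were 0.28 and 0.27. With each region fitted alone they were 0.11 and 0.35, so these intervals do not describe the spread of PYY-like within either region. For npy, male minus female was 0.03 (-0.18 to 0.23) and 0.003 (-0.20 to 0.20). The difference between regions of the sex effect was 0.05 for PYY-like (-0.75 to 0.86) and 0.02 for npy (-0.26 to 0.31).

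**Figure D2:**
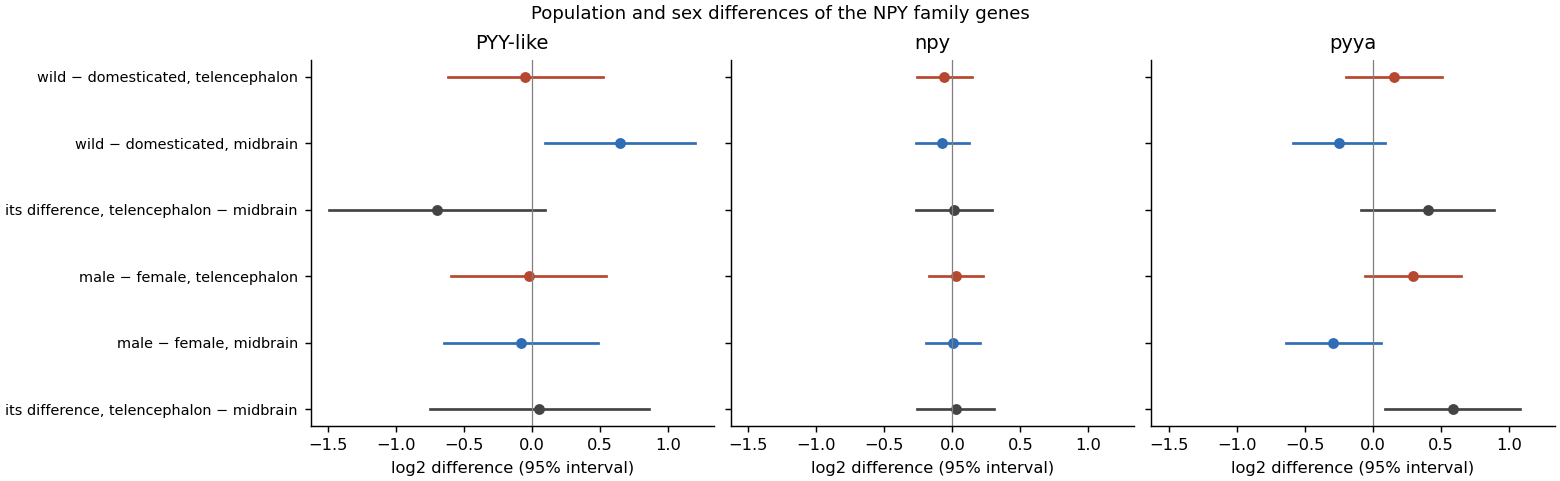
Log2 differences (x axis, with 95% intervals from the fit across all genes) of wild minus domesticated and male minus female in telencephalon (red) and midbrain (blue), and the difference of each between regions (black), for PYY-like, npy and pyya. With the spread estimated from both regions, the intervals of npy are the narrowest. The interval of PYY-like for wild minus domesticated in midbrain runs from 0.098 to 1.201. Its SE is 0.27 in this fit and 0.34 with the midbrain arrays fitted alone.

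Within a region, the 3 genes did not vary together at the threshold. Over the telencephalon arrays, Pearson's r was 0.45 for npy with pyya (rho 0.24), 0.25 for PYY-like with npy (rho 0.24) and 0.05 for PYY-like with pyya (rho 0.21). Over the midbrain arrays the same pairs gave 0.18 (rho 0.12), 0.21 (rho 0.29) and -0.19 (rho -0.09). In a two-sided permutation test of 100000 resamples, the unadjusted p of r was 0.0900 for the first of these and between 0.374 and 0.857 for the others. Adjusted over the 6 relations, p of r was 0.540 or higher and p of rho 0.684 or higher. Without the 2 arrays farthest from the median on the x axis, r of npy with pyya in telencephalon was 0.25, and within populations it was 0.56.

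Among arrays of one region, r of pyya with the means of forebrain markers was positive in every relation. It passed the threshold for the telencephalon markers over midbrain arrays and for the hypothalamus and diencephalon markers over telencephalon arrays. There rho did not pass, and r did not pass for the other pairings of markers and region. Against the mean of the 14 telencephalon markers, r over the 16 midbrain arrays was 0.68 (permutation p = 0.0040, adjusted p = 0.0478 over 12 relations) and rho 0.64 (permutation p = 0.0097, adjusted p = 0.0585). It was 0.69 without the 2 arrays farthest from the median and 0.67 within populations. The relations to marker means were chosen after the values were seen.

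Against the mean of the 17 hypothalamus and diencephalon markers, r of pyya over the 15 telencephalon arrays was 0.65 (permutation p = 0.0080, adjusted p = 0.0482) and rho 0.60 (permutation p = 0.0207, adjusted p = 0.0830). It was 0.56 without the 2 farthest arrays and 0.67 within populations. Over the midbrain arrays, r with these markers was 0.41 (permutation p = 0.106, adjusted p = 0.319) and rho 0.74 (permutation p = 0.0016, adjusted p = 0.0188). Without the 2 farthest arrays that r was 0.72, and within populations 0.47. Over the telencephalon arrays, r of pyya with the telencephalon markers was 0.48 (permutation p = 0.0704, adjusted p = 0.282) and rho 0.51 (permutation p = 0.0520, adjusted p = 0.156). Without the 2 farthest arrays that r was 0.88, the highest of the 4, and within populations 0.45.

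PYY-like and npy gave no such relation at the threshold. Over the midbrain arrays, r with the telencephalon markers was -0.09 for PYY-like (permutation p = 0.747) and -0.04 for npy (permutation p = 0.879). The midbrain array with the highest PYY-like value, 11.00, had a telencephalon marker mean of 8.01, close to the lowest of that region. Over all 8 relations of these genes the adjusted p of r was 0.802 or higher.

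**Figure D3:**
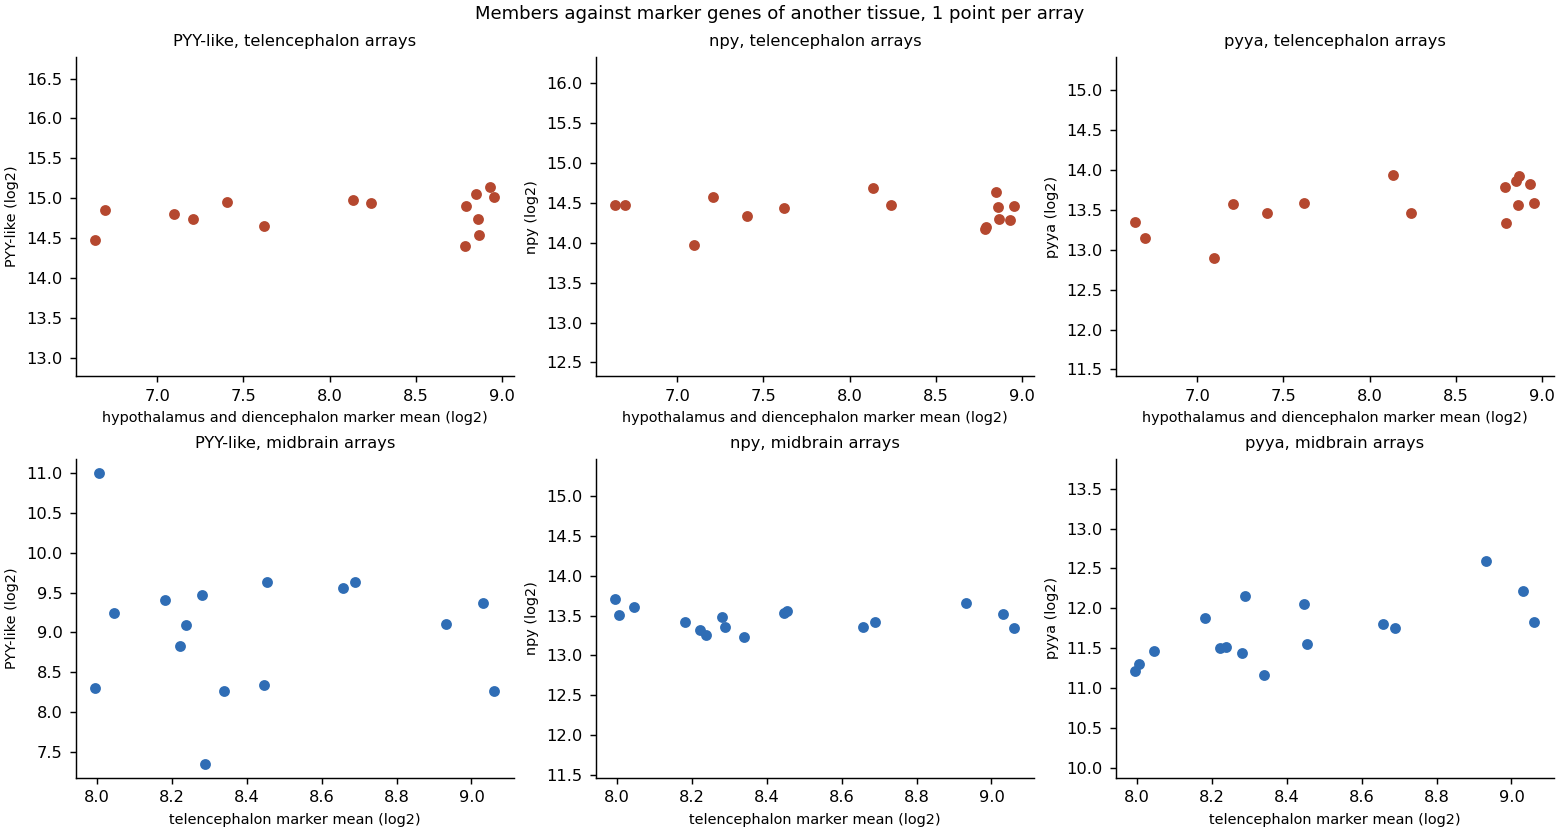
Log2 values of PYY-like, npy and pyya (y axis, 4 units in each panel) against the mean log2 value of marker genes (x axis), 1 point per array. The upper panels plot the 15 telencephalon arrays against 17 hypothalamus and diencephalon markers, the lower panels the 16 midbrain arrays against 14 telencephalon markers; pyya rises to the right in both, with r of 0.65 and 0.68.

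The genes whose values were most like those of each family gene over the 31 arrays included GPR161 for both PYY-like and npy. For PYY-like they included emx3, a forebrain transcription factor gene (r = 0.97), GPR161, a ciliary receptor gene (0.97), EOMES, a pallial transcription factor gene (0.97), and htr7a, a serotonin receptor gene (0.97). For npy they were adcyap1b, which encodes the peptide PACAP (0.95), CPLX3, a complexin gene of synaptic release (0.95), GPR161 (0.95), CYTH1 (0.95) and STUM (0.94). For pyya they included DLX2 (0.97), LHX8 (0.96), ARL2BP (0.96) and LHX6 (0.95), of which DLX2, LHX6 and LHX8 are transcription factor genes of subpallial and inhibitory neurons and belong to the telencephalon markers above. The 3 family genes themselves correlated at 0.91 to 0.94 with one another. The regions form separate clusters, so these r mostly restate the region difference and carry no p. Within regions, r of PYY-like with emx3 was -0.19 in telencephalon and 0.09 in midbrain, while r of pyya with DLX2 was 0.61 and 0.72.

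With the mean of each region taken away, the likest genes of pyya were dkk1b, which encodes a Wnt inhibitor (r = 0.72), ppp2r5ea (0.68), DLX2 (0.68), ARL2BP (0.67) and oxt, the oxytocin-type hormone gene of the preoptic area (0.64), which belongs to the hypothalamus and diencephalon markers. Those of npy were MT-ND2 (0.75), MT-CYB (0.75) and MT-ND1 (0.70), all encoded by the mitochondrial genome, with YWHAG (0.72) and GPM6A (0.70), genes that neurons express strongly. Those of PYY-like were ssuh2.3 (0.66), the chemokine receptor gene cxcr3.2 (0.66), apcs (0.64), CMKLR1 (0.64) and NUP37 (0.63). They are the highest of all named genes over 31 arrays, so their r is a description.

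Of the genes that receive the peptides, 3 of 10 receptor entries were found. The difference between regions passed for all of these, against 43.6% of all genes. npy8br, a Y8 receptor gene of a type that mammals lack, was higher in telencephalon by 0.94 (SE 0.080, adjusted p = 4.77e-10 in limma). Its 15 telencephalon values lay between 11.93 and 12.84 with a median of 12.34, and its 16 midbrain values between 11.06 and 11.85 with a median of 11.32, so the regions did not overlap.

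NPY2R, the gene of the Y2 receptor that in mammals sits on NPY-releasing terminals, was higher in telencephalon by 0.66 (SE 0.18, adjusted p = 0.0047 in limma). Its values lay between 4.68 and 7.40 in telencephalon (median 6.04) and between 4.69 and 6.05 in midbrain (median 5.33). NPY5R, the gene of a receptor through which NPY promotes feeding in mammals, was lower in telencephalon, with a difference of -0.82 (SE 0.16, adjusted p = 1.61e-04 in limma). Its values lay between 5.22 and 7.74 in telencephalon (median 6.18) and between 6.57 and 7.64 in midbrain (median 7.16). The regions overlapped for both of these genes. Both lay below the array medians of 9.57 to 9.74, while the lowest gene of an array was at 3.50 to 3.76. Without detection calls, whether these signals stand above background was not tested.

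No receptor gene passed for wild against domesticated, for sex or among populations. The lowest adjusted p were 0.115 for npy8br among telencephalon populations (F = 4.22), 0.137 for NPY5R in the same test (F = 3.89) and 0.251 for NPY5R in male minus female in telencephalon, where the estimate was 0.85 (SE 0.23), all in limma. NPY5R gave 5.22 to 6.97 in telencephalon females (median 5.98) and 5.64 to 7.74 in males (median 6.75), and the sexes overlapped.

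The enzymes and vesicle proteins that process and store these peptides also serve other peptides. Of 12 such genes, 2 were higher in telencephalon (16.7%, against 21.6% of all genes), 2 were lower (16.7%, against 22.1% of all genes) and 8 did not pass, with a median difference of 0.09 against 0.01 over all genes. chga, which encodes the vesicle protein chromogranin A, was higher by 0.78 (SE 0.069) and scg2b, a secretogranin gene, by 0.22 (SE 0.043). chgb, the chromogranin B gene, was lower, with a difference of -2.87 (SE 0.081), as was one FURIN gene, with -0.40 (SE 0.060). The precursor-cutting enzyme genes PCSK1 and PCSK2 differed by 0.12 (limma adjusted p = 0.0571) and 0.11 (limma adjusted p = 0.177).

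The mean chgb signal of the wild populations exceeded that of the domesticated ones by 0.67 in telencephalon (SE 0.12, limma adjusted p = 0.0022). In midbrain it did so by 0.63 (SE 0.11, limma adjusted p = 0.0039). The SE reflects arrays within populations, and whether a single population carried the difference was not tested. chgb was the only gene of this list to pass in either comparison, and these called 1.91% and 0.786% of all genes.

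Feeding peptides and their receptors act with NPY in the hypothalamus. Of 23 such genes, 3 were higher in telencephalon (13.04%, against 21.6% of all genes), 8 were lower (34.8%, against 22.1%) and 12 did not pass, with a median of -0.08. agrp, whose peptide is made in the NPY neurons of the mammalian arcuate nucleus, differed by -2.79 (SE 0.34) and POMC, the melanocortin precursor gene, by -3.37 (SE 0.27). The melanin-concentrating hormone genes pmchl and PMCH differed by -6.22 (SE 0.45) and -3.64 (SE 0.32), and CCK, the cholecystokinin gene, by -2.34 (SE 0.32). cart4, a gene of the CART peptides, was higher in telencephalon by 1.65 (SE 0.22). The mean of the hypothalamus and diencephalon markers lay between 7.58 and 10.05 in midbrain and between 6.64 and 8.96 in telencephalon, and its part in the feeding genes was not tested. That marker list also holds agrp, PMCH, pmchl and HCRT. POMC is also one of the pituitary markers, whose mean ran from 5.45 to 8.54 in midbrain and from 5.39 to 6.30 in telencephalon. The part of pituitary tissue in the POMC difference was not tested.

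In this list, CCK was higher in males in telencephalon by 2.63 (SE 0.46, limma adjusted p = 0.0312), in a comparison that called 0.0320% of all genes. CCK and pomcb passed the F test among telencephalon populations (limma adjusted p = 0.0355 and 0.0338), which called 6.44% of all genes. No gene of the list passed for wild against domesticated in either region.

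Genes of GABAergic interneurons, the cells that hold most forebrain NPY in mammals, were split. Of 22, 9 were higher in telencephalon (40.9%, against 21.6% of all genes), 11 were lower (50.0%, against 22.1%) and 2 did not pass, with a median of -0.10. The 9 included the transcription factor genes LHX8 (3.63, SE 0.15), LHX6 (3.398, SE 0.15) and DLX2 (3.21, SE 0.18). The 11 included the calcium-binding protein genes calb2b (-4.28, SE 0.13) and CALB2 (-2.22, SE 0.094). For calb2b the mean of the wild populations minus that of the domesticated ones was -0.73 in telencephalon (SE 0.19, limma adjusted p = 0.0407). Whether a single population carried it was not tested. sst1.2, a somatostatin gene, passed the F test among telencephalon populations (limma adjusted p = 0.0433). A second row of LHX6 (ENSDARG00000052165) passed that test in both regions, with adjusted p in limma of 0.0013 in telencephalon and 0.0124 in midbrain. Unlike the LHX6 row above, it did not pass for region, with a difference of 0.40 (SE 0.19, limma adjusted p = 0.0964). The F test called 6.44% of all genes in telencephalon and 3.29% in midbrain, and wild minus domesticated in telencephalon called 1.91%.

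Of 6 genes of noradrenergic neurons, 5 were lower in telencephalon (83.3%, against 22.1% of all genes) and 1 was higher (16.7%, against 21.6%), with a median of -0.63. TFAP2A, a transcription factor gene of these neurons, differed by -2.62 (SE 0.13), DDC and TH, which encode enzymes of catecholamine synthesis, by -1.51 (SE 0.29) and -0.86 (SE 0.23), DBH, the enzyme gene that defines the cells, by -0.39 (SE 0.16) and SLC18A2, the vesicular transporter gene, by -0.32 (SE 0.11). SLC6A2, the noradrenaline transporter gene, was higher by 1.29 (SE 0.13). None passed for wild against domesticated or for sex.

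**Figure D4:**
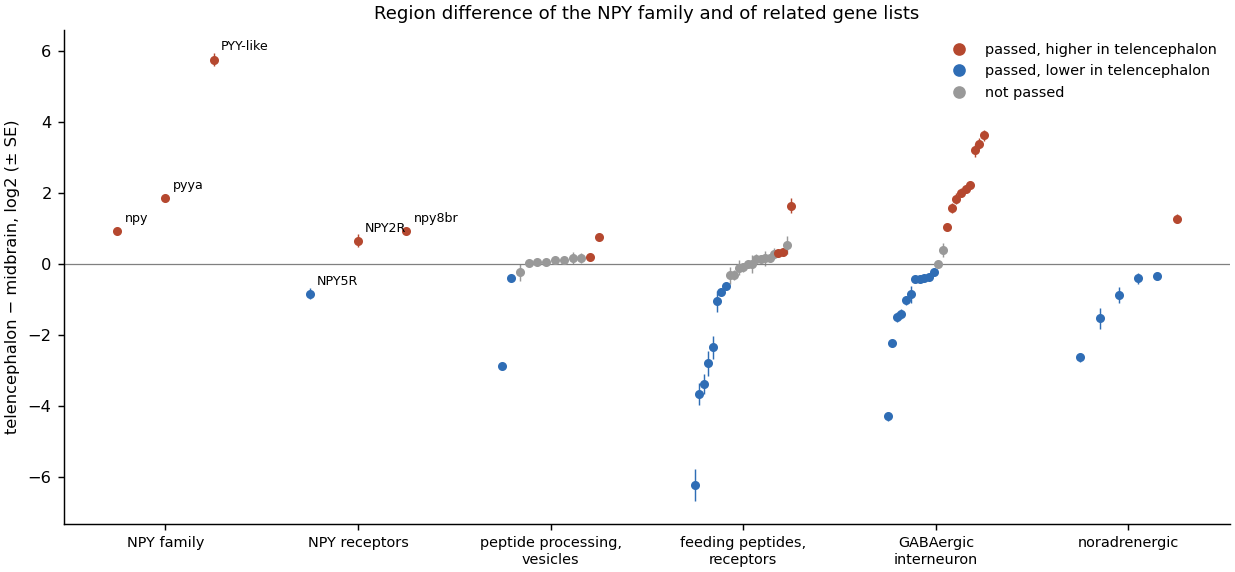
Telencephalon minus midbrain (y axis, log2, points with SE bars) for the 3 NPY family genes and for the genes of 5 related lists (x axis), in red where higher and in blue where lower in telencephalon at the threshold, and in grey otherwise. All 3 family genes are red, while feeding genes reach -6.22 and the interneuron genes run from -4.28 to 3.63.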

How the data were processed

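Values are the log2 table deposited by the authors, who used RMA and the Zv9 build per the submitters' processing notes; the log2 scale is inferred from its range (lowest gene of an array 3.50 to 3.76, highest 15.22 to 15.48). Per the labels' protocols, RNA was extracted with Trizol, copied with random hexamers and labelled with Cy3. No rescaling was applied, and 1 of 15649 rows, without a gene, was left out. Symbols matched 13251 genes.

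limma 3.58.1 (R 4.3.3, statmod 1.5.0) fitted the 8 group means, with sex as a separate term for either region and 21 residual degrees of freedom. Contrasts were region, wild minus domesticated, populations (moderated F and pairs) and sex. The Benjamini-Hochberg threshold was 0.05 over all genes. Intervals are at 95%. The number of arrays limits the precision. The fit was also run on simulated arrays with known changes. Their noise was independent, with the same SD for a gene in both regions. That run cannot show how the fit handles the unequal spread of PYY-like or the correlated samples of the same number.

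The members and lists were chosen with earlier results of these data known. Family and receptor genes are all named; of another list, up to 6 genes with the smallest p for region, and those passing elsewhere. The likest genes are the 5 with the highest r, symbols that are clone or locus names left out. A few genes chosen in this way are left unreported here. Alternatives left out dim genes, populations or arrays, or changed the scaling, moderation, weights, sex term, block, covariate or threshold.

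The labels do not say that samples of one number come from one fish. Their residuals correlated at 0.052 to 0.524 over all genes (median 0.397), over 0.1 for 13 of 15 numbers. Where a number occurs in both regions, its population and sex are the same. Pairing was to be used only if the labels stated a shared fish or every number passed 0.1, and neither held. The main fit thus has no number term, and fits with one are among the alternatives.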

Additional observations from a re-analysis of the deposited data

Results flagged for a closer look

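One array stood apart from the other 3 of its group. PYY-like was 11.0 on the midbrain array of Pargana North number 140, a male, and 9.47 to 9.63 on the others, so that the gap made up 0.898 of the range of the group. It was 1 such case among 21 combinations of a gene and a group of 4 arrays, and chance gives about 1 in 20. The 3 genes were read on the same arrays, so these combinations are not independent. On the same array npy was 13.50 and pyya 11.30, both within the range of the other arrays of the region, and the telencephalon marker mean was 8.01. The telencephalon array of that number had a PYY-like value of 14.98, within its group.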

How the results depend on the processing

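Of 1941 recomputed values, 1867 kept their side of the threshold and, where they have one, their sign. The other 74 changed sign, all from an estimate that had not passed. For correlations only the sign was compared, because no p was computed for their alternatives. The region difference passed for all 3 genes in every setting run, at 5.56 to 6.03 for PYY-like, 0.89 to 0.99 for npy and 1.79 to 1.96 for pyya, and no F test among populations, wild minus domesticated or sex estimate of these genes passed in any of them. The differences between pairs of populations were not recomputed. With the sample number as a fixed replicate block the region difference was 5.67, 0.92 and 1.89, and with a random replicate block (correlation 0.227) 5.75, 0.93 and 1.87. The random replicate block moved PYY-like, male minus female in telencephalon, to 2.85e-05. For 13 of the 15 numbers the samples correlated best with their own number, a hint from the data that the labels do not state.

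Signs turned as follows, and the cause was not tested. For wild minus domesticated in telencephalon, PYY-like was 0.0136 with array weights, 0.134 without Nadia and 0.0371 without Scientific Hatchery, and npy 0.0256 without Transgenic Mosaic 1. For its difference between regions, npy was -0.0188 after quantile normalization, -0.0638 without Nadia, -0.125 without Scientific Hatchery and -0.00939 with the hypothalamus covariate. For male minus female in telencephalon, PYY-like was 0.0674 without Nadia and 0.00380 without both Pargana North 21 arrays, and npy -0.0422 with array weights, -0.132 without Pargana North and -0.00944 with the hypothalamus covariate. In midbrain, PYY-like was 0.277 without Nadia and 0.152 without Transgenic Mosaic 1. There npy was -0.00638 with array weights, -0.00620 with equal medians, -0.00773 after quantile normalization, -0.0129 with the hypothalamus covariate, and -0.00946, -0.0377 and -0.0178 without Nadia, Pargana North and Scientific Hatchery. For the sex difference between regions, PYY-like was -0.210 without Nadia, -0.260 without Transgenic Mosaic 1 and -0.00555 with the telencephalon marker covariate, and npy -0.0359 with array weights, -0.0945 without Pargana North and -0.0648 without Transgenic Mosaic 1. The correlation of PYY-like with pyya in midbrain was 0.221 without the 2 farthest arrays.

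Leaving out each array in turn moved wild minus domesticated in telencephalon from -0.0982 to 0.0140 for PYY-like and from -0.114 to 0.0149 for npy, and its difference between regions from -0.0396 to 0.0890 for npy. Male minus female ran from -0.0879 to 0.0141 for PYY-like and -0.0484 to 0.0768 for npy in telencephalon, and from -0.324 to 0.0692 and -0.0298 to 0.0460 in midbrain. Its difference between regions ran from -0.0947 to 0.299 and from -0.0511 to 0.0741. For PYY-like among midbrain populations, F ran from 2.78 to 6.68 and the adjusted p in limma from 0.0609 to 0.359.

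The limits are few arrays per group, a PYY-like level near the top of the scale in telencephalon, the absence of detection calls, and unknown hybridization batches and dissection borders.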
